A study of Mus musculus with 12 samples.

Results

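The 10 genes described here encode the central ligands and receptors of vascular endothelial growth factor (VEGF) and angiopoietin signalling: Vegfa, Vegfb, Vegfc, Kdr, Flt1, Flt4, Tek, Tie1, Angpt1 and Angpt2. They were chosen by gene name from a table of read counts, in which all 10 of 10 were found among 54532 genes. The same 10 were among the 17002 genes with enough counts to be tested. The table covers total RNA of dorsal root ganglia, the clusters of sensory neuron cell bodies beside the spinal cord, in 12 libraries. All 12 came from C57BL/6 mice given D-alanine. The 6 control libraries carried the genotype CDH5-Cre, a recombinase driven by the promoter of the endothelial cadherin gene. The 6 DAAO libraries carried the genotype label DAAO-TGCdh5. DAAO stands for D-amino acid oxidase, which makes hydrogen peroxide as it turns D-alanine over. Cre appears only in the titles of the DAAO samples and not in their genotype label, and their age was not given in the sources used here. Labels do not tie a library to 1 animal, so p-values below weigh differences against the spread of these libraries, which may be partly technical.

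VEGF proteins are secreted and bind receptor tyrosine kinases that sit mainly on endothelial cells, where they drive vessel growth, survival and permeability. Angiopoietins act on a neighbouring system: Angpt1, made largely by cells around the vessel, activates the receptor Tie2 (encoded by Tek) and keeps vessels quiet, whereas Angpt2 competes with it in most settings. Dorsal root ganglia are densely vascularised, and their capillaries are more permeable than those of the brain and spinal cord.

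None of the 10 genes passed the test across all genes for a difference between DAAO and control ganglia. Flt1, Angpt2, Kdr and Tek had fitted levels of 0.769 to 0.802 times those of controls, but the groups overlapped in each of them. Vegfa and Vegfb, the abundant ligands, had mean levels close to those of controls, and for both the DAAO libraries were closer together than the controls. The endothelial transcripts measured beside them were at a similar overall level in both groups.

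Each library held between 13227518 and 23884927 counts. Controls 2 and 6 stood apart in the share of counts from the mitochondrial genome, with 7.44% and 7.65%, where the other controls reached at most 4.78% and DAAO libraries lay between 3.32% and 5.13%. Levels are given as CPM, the count scaled to the size of the library. In 5 libraries (controls 1 and 2, and libraries 1, 2 and 6 of DAAO) Xist and the summed Y-linked genes both exceeded 10 CPM, so that a library may hold RNA of more than 1 animal. Of the others, controls 3, 5 and 6 and DAAO 3 had Xist with at most 2.14 CPM of the Y-linked genes. Control 4, DAAO 4 and DAAO 5 had Y-linked counts with at most 0.692 CPM of Xist. The sexes were thus not balanced between the groups, and sex was not a term in any fit. All 13 pan-neuronal markers, such as Snap25 and Tubb3, had counts in all 12 libraries and summed to between 13000 and 19900 CPM in controls and between 10100 and 17200 in DAAO. All 25 endothelial markers, among them Pecam1, Cldn5 and Cdh5, also had counts in every library. They summed to between 368 and 513 CPM in controls and between 368 and 543 in DAAO. No endothelial marker passed the test, and their median log2 fold change was 0.03. The mean centred log2 level of this list per library did not differ between groups beyond its spread (0.01 ± 0.12 in controls and -0.01 ± 0.26 in DAAO, SD, n = 6 each; exact permutation p = 0.829, two-sided). In whole ganglia, fewer cells of a type and less RNA per cell cannot be told apart. Of 12 macrophage markers 10 had log2 fold changes above 0 and 8 an unadjusted p under 0.05, where 10.3% of all genes did. The median of the list was 1.03, and its markers summed to between 91.3 and 559 CPM in controls and between 412 and 1950 in DAAO. DESeq2 called Lyz2 and Cd68 (4.88 ± 3.71 and 29.0 ± 17.7 CPM, edgeR log2 fold change 2.56, edgeR adjusted p = 0.0902). Lyz2 was the macrophage marker that passed with edgeR (adjusted p = 0.0450), a call lost in 12 of 25 alternatives, 9 of them the omission of 1 library (adjusted p from 0.0613 to 0.113 over the 12). The part of macrophages in the levels below was not tested.

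To set the genes beside each other, levels were divided by the length of each gene, as CPM per kilobase. That length counts every exonic base over the annotated transcripts of a gene, 13 for Vegfa, 6 for Flt1 and 3 for Kdr. It can exceed the length of 1 transcript, and its effect on the order and on ratios between genes was not tested. Vegfb was the most abundant of the 10, with 36.2 ± 7.35 CPM per kilobase over all 12 libraries (SD), and its lowest library lay above the highest of Vegfa. Vegfa followed with 11 ± 2.44 and Angpt2 with 5.64 ± 1.45. The next 3 were receptors that did not differ from each other beyond their spread: Tie1 at 2.45 ± 0.551, Flt1 at 2.19 ± 0.633 and Tek at 2.04 ± 0.552. Tie1 exceeded Flt1 in 8 of 12 libraries and Flt1 exceeded Tek in 8 of 12. Angpt1 and Kdr were also level with each other, at 1.34 ± 0.679 and 1.27 ± 0.299, each the higher in 6 libraries. Vegfc and Flt4 came last at 0.508 ± 0.269 and 0.223 ± 0.0983, with ranges that overlapped. The 3 highest means were thus those of secreted ligands, ahead of every receptor of the set.

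**Figure D1:**
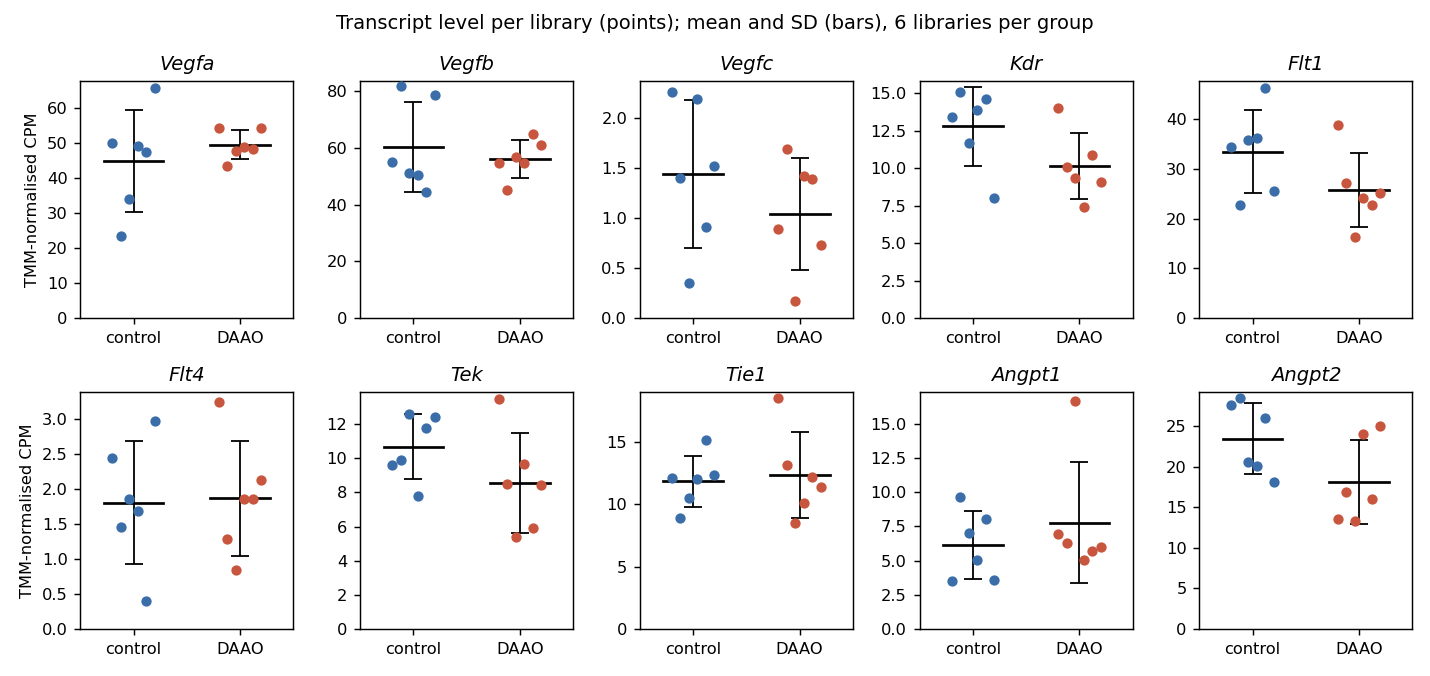
Level of each of the 10 genes in CPM (vertical axes, starting at 0) for 6 control and 6 DAAO libraries; points are libraries, horizontal bars are means and error bars are SD. The groups overlap in every panel, Vegfa is spread from 23.4 to 65.5 CPM in controls against 43.5 to 54.2 in DAAO, and 1 DAAO library stands at 16.7 CPM of Angpt1.

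By edgeR's quasi-likelihood test with Benjamini-Hochberg adjustment over all 17002 genes, 0 of the 10 passed an adjusted p of 0.05, and 0 of 10 had an unadjusted p under 0.05. DESeq2 and limma-voom also called 0 of them. Of all genes tested 0.753% passed (0.506% higher and 0.247% lower in DAAO) and 10.3% had an unadjusted p under 0.05. The log2 CPM ranges of the groups overlapped in all 10 members; over all genes they did not overlap in 1.45%. Log2 fold changes (DAAO minus control) were negative in 6 members and positive in 4, from -0.45 to 0.34, with a median of -0.21 where the median of all genes tested was 0.00. Adjusted p-values ran from 0.527 to 0.991.

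**Figure D2:**
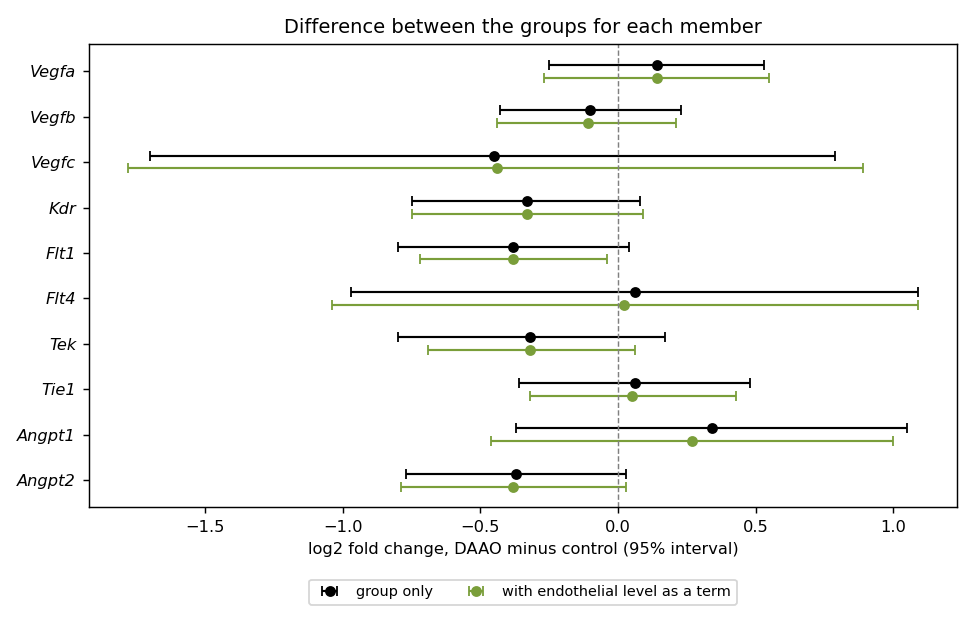
Log2 fold change of each gene (horizontal axis, DAAO minus control) with its 95% interval, from the comparison of the groups alone (black) and with the level of 25 endothelial markers as a term (green). All 10 black intervals hold 0, and they are widest for Vegfc and Flt4, the genes with the fewest counts.

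Vegfa, the main driver of vessel growth and permeability and a gene induced by low oxygen (ENSMUSG00000023951; chromosome 17, 46016993 to 46032369, build GRCm38), had a lowest, median and highest level of 23.4, 48.3 and 65.5 CPM in controls. In DAAO these values were 43.5, 48.5 and 54.2. The DAAO libraries lay within the range of the controls, and the control range was set by controls 2 and 3 at the low end (23.4 and 33.9) and control 6 at the high end. Relative to the mean, the SD was 32.4% among controls but 8.41% among DAAO libraries; the difference in spread was not tested. The means were 44.9 ± 14.5 and 49.4 ± 4.15 CPM (SD, n = 6), a log2 fold change of 0.14 ± 0.19 (SE; 95% interval -0.25 to 0.53; edgeR adjusted p = 0.885). The interval spans a level 0.840 to 1.45 times that of controls. Single controls moved this value: it was 0.01 without control 2, 0.06 without control 3 and 0.28 without control 6. It was 0.13 without controls 2 and 6 (adjusted p = 0.637), 0.28 with the pericyte level as a term and 0.38 with the neuronal level as a term (adjusted p = 0.441).

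Vegfb, a ligand of Flt1 that is tied more to fatty acid handling and vessel survival than to sprouting (ENSMUSG00000024962; chromosome 19, 6982473 to 6987651), ranged from 44.4 to 81.6 CPM in controls around a median of 53.2. DAAO libraries ranged from 45.1 to 64.7 around 55.7. Relative to the mean, the SD was 26.3% among controls and 11.9% among DAAO libraries, and this difference in spread was not tested. The highest values were those of controls 2 and 6 (81.6 and 78.7), the libraries with the largest mitochondrial share, and the other 10 libraries lay between 44.4 and 64.7. The log2 fold change was -0.10 ± 0.16 (adjusted p = 0.905). It became 0.01 without control 2 and 0.16 without controls 2 and 6, so its direction rested on those libraries. Control 2 was at once the lowest library for Vegfa and the highest for Vegfb. Its ratio of Vegfa to Vegfb, per kilobase, was 0.108, where the other controls lay between 0.248 and 0.400 and the DAAO libraries between 0.279 and 0.373.

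Vegfc, the ligand of lymphatic growth (ENSMUSG00000031520; chromosome 8, 54077606 to 54187096), had 3 to 47 counts per library. Control libraries averaged 1.44 ± 0.742 CPM, and DAAO libraries 1.05 ± 0.560 (SD, n = 6). The log2 fold change of -0.45 ± 0.59 (adjusted p = 0.883) had an interval that spans 0.308 to 1.73 times the control level. It ranged from -0.68 (without control 3) to -0.25 (without DAAO 3) when 1 library was left out, and was -0.12 with limma-voom and sample weights. Libraries of both groups were spread widely, from 0.350 to 2.27 CPM and from 0.168 to 1.69. Vegfd, the other lymphatic ligand, and Pgf, a further ligand of Flt1, are counted with the co-receptors below.

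Among the VEGF receptors, Kdr (VEGFR2) carries most of the signal of Vegfa in endothelial cells, and Flt1 (VEGFR1) binds Vegfa tightly with weak kinase activity and also acts as a decoy. Kdr (ENSMUSG00000062960; chromosome 5, 75932827 to 75978458) had a lowest, median and highest level of 8.01, 13.6 and 15.1 CPM in controls and of 7.41, 9.74 and 14 in DAAO. Only 1 of 6 DAAO libraries, DAAO 1, exceeded the control median, and control 6 was as low as the DAAO libraries. The log2 fold change was -0.33 ± 0.20 (95% interval -0.75 to 0.08; adjusted p = 0.611).

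Flt1 (ENSMUSG00000029648; chromosome 5, 147561604 to 147726011) had 22.7, 35 and 46.1 CPM in controls and 16.2, 24.7 and 38.8 in DAAO. DAAO 1 was again the 1 library above the control median, while controls 2 and 6, at 22.7 and 25.5, lay among the DAAO values. Its log2 fold change was -0.38 ± 0.20 (95% interval -0.80 to 0.04), or 0.769 times the control level, and it did not pass (adjusted p = 0.548). Without controls 2 and 6 it was -0.56 ± 0.18 (adjusted p = 0.100), in a fit where 3.63% of all genes passed. The counts are per gene and do not separate the membrane-bound from the soluble transcript of Flt1. Per kilobase the ratio of Flt1 to Kdr averaged 1.79 ± 0.421 among controls, against 1.70 ± 0.367 for DAAO (SD, n = 6), and control 2 was lowest with 1.01.

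Flt4 (VEGFR3), the receptor of Vegfc on lymphatic vessels (ENSMUSG00000020357; chromosome 11, 49609263 to 49652739), had 8 to 51 counts per library. Its level averaged 1.8 ± 0.877 CPM among controls, against 1.87 ± 0.817 for DAAO, with a log2 fold change of 0.06 ± 0.49 (95% interval -0.97 to 1.09; adjusted p = 0.991). The sign turned without control 5 or without DAAO 1 (-0.17 each). Of 8 lymphatic markers 6 were tested and 0 passed with edgeR, DESeq2 or limma-voom; 1, Stab1, which macrophages also carry, had an unadjusted p under 0.05 (0.78, adjusted p = 0.170). Lyve1, a hyaluronan receptor, and Reln had log2 fold changes of -0.59 and 0.17 (adjusted p = 0.653 and 0.788).

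Of the Tie receptors, Tek encodes Tie2, which binds the angiopoietins, and Tie1 encodes a partner that has no angiopoietin as its own strong ligand and modulates Tie2. Tek (ENSMUSG00000006386; chromosome 4, 94739289 to 94874976) had a lowest, median and highest level of 7.77, 10.8 and 12.6 CPM in controls and of 5.38, 8.49 and 13.5 in DAAO. The highest and the lowest library of all 12 were both DAAO, DAAO 1 and DAAO 3. The log2 fold change was -0.32 ± 0.23 (95% interval -0.80 to 0.17; adjusted p = 0.705). Tie1 (ENSMUSG00000033191; chromosome 4, 118471191 to 118490061) averaged 11.8 ± 2.06 CPM among controls and 12.3 ± 3.44 among DAAO libraries, with a log2 fold change of 0.06 ± 0.20 (adjusted p = 0.968). Its sign turned without DAAO 1 (-0.09) and without control 2 (-0.01). The ratio of Tek to Tie1 per kilobase averaged 0.964 ± 0.224 among controls, against 0.730 ± 0.162 for DAAO, and the ranges overlapped, from 0.677 to 1.25 and from 0.504 to 0.993.

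Angpt1, the activating ligand of Tie2 (ENSMUSG00000022309; chromosome 15, 42424723 to 42676977), ranged from 3.49 to 9.66 CPM in controls around a median of 6.02. In DAAO it ranged from 5.01 to 16.7 around 6.17. A single library, DAAO 3, held 16.7 CPM, and the other DAAO libraries lay between 5.01 and 6.98. The log2 fold change of 0.34 ± 0.34 (adjusted p = 0.829) became -0.05 without DAAO 3. The antisense gene Gm17473 shares 737 bases of exon with Angpt1, which is 14.2% of its exonic length; it had 54 counts over all libraries against 1552 of Angpt1, and whether strand was used in counting was not given in the sources used here.

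Angpt2, which is released by activated endothelium and mostly opposes Angpt1 (ENSMUSG00000031465; chromosome 8, 18690263 to 18741562), was the member with the smallest p. It had a lowest, median and highest level of 18.1, 23.3 and 28.5 CPM in controls and of 13.3, 16.4 and 25.1 in DAAO. In DAAO, 4 libraries (13.3 to 16.9) lay below every control. The other 2, DAAO 4 and DAAO 6 (24.0 and 25.1), lay within the control range, between control 3 (20.6) and control 5 (26.0). The log2 fold change was -0.37 ± 0.19 (95% interval -0.77 to 0.03), or 0.773 times the control level (unadjusted p = 0.0653; edgeR adjusted p = 0.527). The whole gene lies inside Mcph1 on the other strand, without shared exon bases in the GENCODE M21 annotation. Mcph1 had 13.8 and 12.0 CPM in the groups (log2 fold change -0.20, adjusted p = 0.877). The ratio of Angpt2 to Angpt1 per kilobase was 6.13 ± 2.73 in controls, from 4.12 to 11.2, and 4.04 ± 2.05 in DAAO, from 1.13 in DAAO 3 to 6.75.

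**Figure D3:**
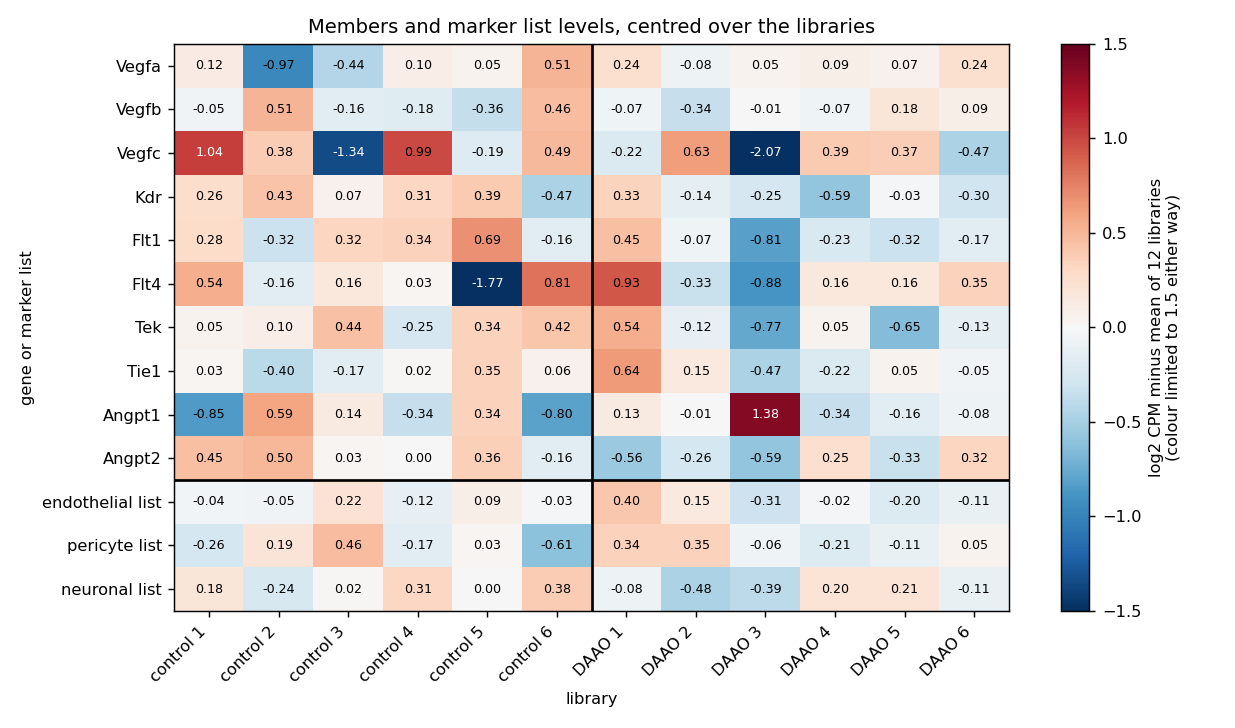
Log2 CPM of the 10 genes in each library (columns) minus the gene's mean over the 12 libraries, above the same measure averaged over the endothelial, pericyte and neuronal marker lists; blue is low, red is high, and the colour is limited to 1.5 either way. Within DAAO, library 1 is high and library 3 is low in Flt1, Flt4, Tek and Tie1, while Angpt1 is highest in library 3 (1.38).

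Profiles were compared as the root mean square difference of standardised log2 CPM over the 12 libraries, where 0 is an identical profile. Of the 45 pairs of members the closest were Flt1 with Tie1 (0.71), Flt1 with Tek (0.77) and Flt1 with Kdr (0.87), and the farthest were Vegfc with Angpt1 (1.79). Each was also compared with 14333 other genes that had an average log2 CPM of at least 1. Among those, the profile of Kdr was nearest to that of Cdh13, which encodes T-cadherin (0.42), Glrx, a glutaredoxin (0.46), and Syndig1 (0.51). For Tek the nearest were H2-Q7 (0.50), Smim18 (0.50) and Rrp1b (0.54), and for Vegfa they were Usp48 (0.38), Ttll4 (0.40) and Serinc2 (0.42). The relation of each member to the level of the endothelial, pericyte and neuronal marker lists was measured over the 12 libraries, 30 relations in all. Tek followed the endothelial list, with Pearson's r = 0.82 (permutation p = 0.00142, adjusted over the 30 p = 0.0426) and Spearman's rho = 0.85 (permutation p = 0.00094, adjusted p = 0.0282). Within groups of 6 libraries r was 0.76 in controls and 0.92 in DAAO, and it was 0.68 over the 10 libraries left without DAAO 1 and DAAO 3, the farthest from the median on the endothelial axis. No other relation passed the adjustment. Flt1 and Tie1 had r = 0.69 and 0.68 with the endothelial list (permutation p adjusted to 0.122 each), which fell to 0.46 and 0.13 without DAAO 1 and DAAO 3. Angpt1 ran against the pan-neuronal list, with r = -0.74 and rho = -0.73 (permutation p adjusted to 0.0798 and 0.128). Kdr, Vegfa and Angpt2 had r of 0.31, -0.06 and -0.06 with the endothelial list.

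**Figure D4:**
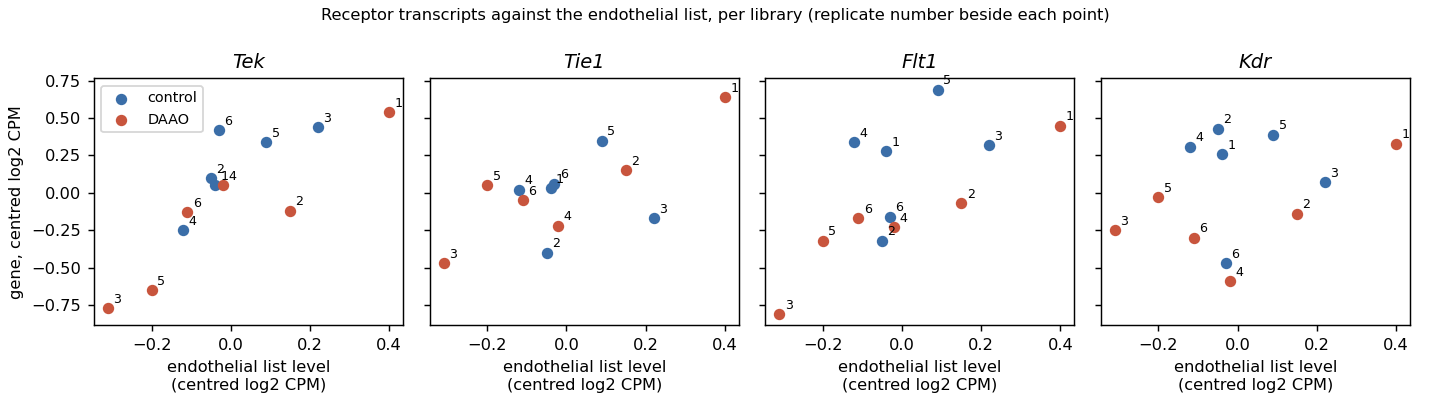
Centred log2 CPM of Tek, Tie1, Flt1 and Kdr (vertical axis) against the centred log2 level of 25 endothelial markers (horizontal axis) in 12 libraries, with the replicate number beside each point. Points of Tek lie along a line in both groups (r = 0.82), whereas those of Kdr scatter (r = 0.31); DAAO 1 and DAAO 3 mark the ends of the endothelial axis.

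The DNA just before the start site is shown for Kdr, Flt1 and Tek, receptors of the 2 systems whose transcripts are compared here with the endothelial list. The bases lie upstream of the start in both RefSeq and GENCODE M21 (RefSeq promoters, build GRCm38.p6), and capitals mark GGAA on either strand, written TTCC on the other. GGAA is the core bound by ETS factors such as Erg and Fli1, which act in endothelial genes.
Kdr (chr5:75978459-75978705, minus strand): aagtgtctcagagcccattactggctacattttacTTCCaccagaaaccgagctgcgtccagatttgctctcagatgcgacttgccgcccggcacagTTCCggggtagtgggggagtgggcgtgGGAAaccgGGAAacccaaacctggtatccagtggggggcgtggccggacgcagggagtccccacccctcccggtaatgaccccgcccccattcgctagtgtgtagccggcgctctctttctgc
Flt1 (chr5:147726012-147726261, minus strand): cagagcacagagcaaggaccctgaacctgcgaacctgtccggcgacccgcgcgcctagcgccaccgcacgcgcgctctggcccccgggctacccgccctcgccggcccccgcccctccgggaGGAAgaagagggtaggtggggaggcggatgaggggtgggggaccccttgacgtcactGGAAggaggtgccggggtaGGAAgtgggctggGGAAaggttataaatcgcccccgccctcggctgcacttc
Tek (chr4:94739039-94739288, plus strand): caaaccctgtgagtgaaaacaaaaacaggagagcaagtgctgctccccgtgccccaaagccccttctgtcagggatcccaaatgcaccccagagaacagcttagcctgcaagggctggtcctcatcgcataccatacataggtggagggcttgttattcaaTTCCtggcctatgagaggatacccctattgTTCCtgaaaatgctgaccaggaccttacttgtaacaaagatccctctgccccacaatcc
The Kdr and Flt1 windows each hold 4 matches to GGAA and the Tek window 2. Flt1 also holds the TATA box sequence TATAAA, which Kdr and Tek lack there. The 4 letters of GGAA, on either strand, occur in 93.4% of all 32851 promoters of the table over the 250 bases before the start, with a mean of 2.91 matches, so most promoters share them; TATAAA occurs in 12.4%. The core of the hypoxia response element is written ACGTG or GCGTG, searched on both strands, and these occur in 16.6% and 28.2% of the promoters. Over the 250 bases before the start, GCGTG had 2 matches each in Vegfb and Kdr and 1 in Flt1. For Vegfa, the window before a start inside the gene held 1 match to each form and the window before its outermost start held 0. In Vegfc, Flt4, Tek and Tie1 there were 0 matches to either form. Promoters were at hand for 8 of the 10 members, so Angpt1 and Angpt2 were not searched.

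Holding the level of the 25 endothelial markers equal did not bring any member past the threshold. With that level as a term in the fit, 0 of 10 members passed with edgeR, where 0.618% of all genes did, and 1, Flt1, had an unadjusted p under 0.05. Flt1 kept a log2 fold change of -0.38 with a smaller error (0.16 in place of 0.20; unadjusted p = 0.0319, adjusted p = 0.456), and Tek one of -0.32 ± 0.18 (adjusted p = 0.607). When controls 2 and 6 were also left out, Flt1 was lower in DAAO by a margin that passed (-0.54 ± 0.14, adjusted p = 0.0454), in a fit where 3.27% of all genes passed. These were the controls with the lowest Flt1 (22.7 and 25.5 CPM), so leaving them out raises the control mean of Flt1. Flt1 was the 1 member called in any fit, and its adjusted p with the endothelial term lay between 0.161 and 0.772 without any 1 library.

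The genes around the core pathway were read as lists, by counts and medians. For comparison, 0.753% of all genes tested passed with edgeR and 10.3% had an unadjusted p under 0.05. DESeq2 called 362 genes in all, limma-voom 98, and limma-voom with sample weights 295. Among 13 further ligands and co-receptors (among them Pgf, Vegfd and the neuropilins Nrp1 and Nrp2) 0 passed with edgeR, 3 had an unadjusted p under 0.05 and the median log2 fold change was 0.02; DESeq2 called 1 (Sema3e), limma-voom 0, and limma-voom with sample weights 2, Sema3e and Gpc1 (adjusted p = 0.0190 and 0.0345). Sema3e, a repulsive guidance ligand of the endothelial receptor Plxnd1, averaged 20.1 ± 6.25 CPM among controls and 33.5 ± 3.69 among DAAO libraries (edgeR log2 fold change 0.73 ± 0.19, adjusted p = 0.0936). Gpc1, a heparan sulfate carrier that can bind VEGF, had 106 ± 30.1 and 156 ± 15.3 CPM (edgeR adjusted p = 0.174), and Plxnd1 142 ± 45.8 and 189 ± 11.4 (adjusted p = 0.466).

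Of 14 modulators of the angiopoietin system, such as the Tie2 phosphatase Ptprb and the transcription factor Foxo1, 0 passed with edgeR and 3 had an unadjusted p under 0.05, with a median of 0.01. DESeq2 called 1 (Itga5), limma-voom 0, and limma-voom with sample weights 2, Itga5 and Tnip2 (adjusted p = 0.0305 and 0.0189). Itga5, the fibronectin receptor subunit, stood at 6.15 ± 3.74 and 15.3 ± 5.08 CPM (1.31 ± 0.36, edgeR adjusted p = 0.137). It passed in 5 of 25 alternatives, and adjusted p reached 0.323 in the others. Besides DESeq2 and sample weights, it passed with the replicate block (1.44, adjusted p = 0.0284), without control 2 (1.64, 0.0180) and without controls 2 and 6 (1.85, 0.00856). Over all genes, the block and these omissions called 187, 322 and 648, where the main fit called 128. Tnip2 and Angptl2 had log2 fold changes of 0.97 and 0.69 (edgeR adjusted p = 0.184 and 0.196).

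Of 20 tested genes of VEGF signal transduction 5 had an unadjusted p under 0.05, and the median was 0.01. With edgeR 1 rose and 0 fell. It was Pxn, which encodes the focal adhesion protein paxillin (ENSMUSG00000029528; chromosome 5, 115506676 to 115555987), with 56.5 ± 6.48 CPM among controls and 85.0 ± 14.8 among DAAO libraries (0.59 ± 0.13, adjusted p = 0.0418; DAAO higher than the control median in 6 of 6). Its call was lost in 14 of 25 alternatives, 9 of them the omission of 1 library (adjusted p from 0.0501 to 0.133 over the 14). Pik3ca, the catalytic kinase subunit downstream of both receptor families, had a log2 fold change of -0.31 (edgeR adjusted p = 0.184) and was called by DESeq2 beside Pxn.

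The genes that VEGF induces in endothelium, with those of sprouting tip cells, did not pass: 0 of 18 with edgeR, DESeq2 or limma-voom, 1 at an unadjusted p under 0.05, and a median of 0.08. The smallest p was that of Adamts1, a protease (14.5 ± 5.48 and 22.3 ± 5.97 CPM, adjusted p = 0.399), followed by Notch1 (0.64, adjusted p = 0.519) and Pdgfb, the growth factor that recruits pericytes (0.31, adjusted p = 0.542). Among 24 regulators and targets of the hypoxia response 0 passed with edgeR and 5 had an unadjusted p under 0.05. Their median was -0.02, DESeq2 called 1, Pfkfb4, and limma-voom 0. Pfkfb4, a regulator of glycolysis, had 19.6 ± 4.10 and 29.2 ± 3.60 CPM (edgeR adjusted p = 0.111). Arnt, the partner of the hypoxia-inducible factors, and Bnip3, a target, had log2 fold changes of 0.35 and -0.32 (adjusted p = 0.320 and 0.387).

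Of 11 tested angiogenesis inhibitors 1 rose and 0 fell, and 2 had an unadjusted p under 0.05. Log2 fold changes were positive in 9, with a median of 0.22. The gene that rose was Col18a1, the collagen XVIII chain from which the inhibitor endostatin is cut. It ranged from 21.1 to 41.0 CPM in controls and from 63.6 to 113 in DAAO, without overlap. With the endothelial level as a term its log2 fold change was 1.65 (adjusted p = 0.000368), close to that from the groups alone (1.64). It passed in all 25 alternatives, with adjusted p of at most 0.00168, and it overlaps Slc19a1 on the other strand. The part of that overlap in the counts of Col18a1 was not tested.

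Among 14 tested endothelial transcription factors 0 passed with edgeR, 3 had an unadjusted p under 0.05, and the median was 0.05. DESeq2 called 1 and limma-voom 0. The 1 was Nr2f2, a factor of venous identity, with 55.8 ± 13.7 and 83.0 ± 11.6 CPM (edgeR adjusted p = 0.116). Its log2 fold change of 0.57 became 0.60 with the replicate block (adjusted p = 0.0389), 0.65 without control 2 (0.0336) and 0.60 without controls 2 and 6 (0.0394). With DESeq2, these were the 4 of 25 alternatives in which it passed, and adjusted p reached 0.294 in the others. Over all genes, the block and these omissions called 187, 322 and 648, where the main fit called 128. Epas1, which encodes the hypoxia-inducible factor of endothelium, had a log2 fold change of -0.26 (adjusted p = 0.439). Ets1 had one of 0.46 (adjusted p = 0.450). Of the 25 endothelial markers 0 passed with edgeR, DESeq2 or limma-voom and 3 had an unadjusted p under 0.05. They went in both directions: Ecscr stood at 14.9 ± 5.0 and 8.88 ± 1.67 CPM (adjusted p = 0.171) and Cldn5, the tight junction protein, at 22.6 ± 4.38 and 33.0 ± 9.49 (adjusted p = 0.310). Cd34, a sialomucin, had a log2 fold change of 0.41 (adjusted p = 0.353).

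Of 14 markers of pericytes and smooth muscle, the cells that make Angpt1 in many vessels, 1 rose and 0 fell, with a median of -0.06. An unadjusted p under 0.05 was found in 2 of them. Cspg4, the NG2 proteoglycan of pericytes and of oligodendrocyte precursors (ENSMUSG00000032911; chromosome 9, 56865033 to 56899870), rose from 15.6 ± 2.43 to 26.0 ± 4.67 CPM (0.74 ± 0.16, adjusted p = 0.0335). The call was lost in 10 of 25 alternatives, 8 of them the omission of 1 library (adjusted p from 0.0509 to 0.111 over the 10). Pxn, Col18a1 and Cspg4 were the genes of these pathway and vessel lists that passed with edgeR.

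**Figure D5:**
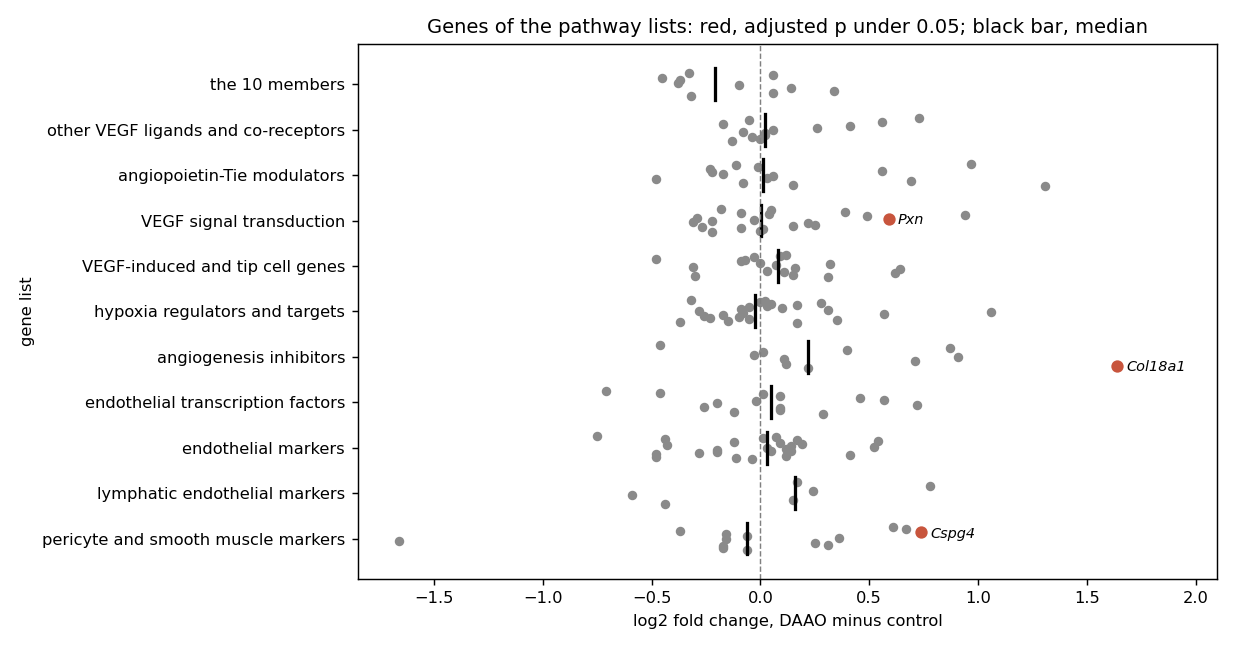
Log2 fold change (horizontal axis, DAAO minus control) of each tested gene in the 10 members and 10 further lists; red points passed at an adjusted p of 0.05 and are named, grey points did not, and black bars are list medians. Medians lie between -0.21 and 0.22, and the red points are Pxn, Col18a1 and Cspg4.

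Lists for the other cells of the ganglion and its surroundings were read in the same way. Of 12 fibroblast and nerve sheath markers 0 passed with edgeR, DESeq2 or limma-voom, 1 (Itgb4) had an unadjusted p under 0.05, and the median log2 fold change was 0.43. Among 13 pan-neuronal markers the log2 fold change was below 0 in 11 and its median was -0.21. Snap25, a synaptic vesicle fusion protein, fell (1280 ± 138 CPM among controls and 836 ± 148 among DAAO libraries, edgeR adjusted p = 0.0498), a call lost in 15 of 25 alternatives, 10 of them the omission of 1 library (adjusted p from 0.0547 to 0.166 over the 15). Satellite glia and Schwann cell markers had medians of -0.43 over 7 genes and -0.35 over 12. Log2 fold changes were below 0 in 6 of the 7 and in 10 of the 12. With edgeR 0 of them passed, while 3 and 7 had an unadjusted p under 0.05, where 10.3% of all genes did. DESeq2 called 3 and 1, and limma-voom with sample weights also called 3 and 1. The genes with the smallest p went in both directions, and those above 0 named below were the only ones of their lists. Among satellite glia markers, Fabp7 and Hmgcs1 had log2 fold changes of -0.73 and -0.56 (edgeR adjusted p = 0.0807 and 0.0957). Apoe, a lipid carrier that macrophages also make, had one of 0.77 (2750 ± 817 and 4680 ± 816 CPM, edgeR adjusted p = 0.0932). It passed in 6 of 25 alternatives, and adjusted p reached 0.256 in the others. Among the 6 were the replicate block (0.81, adjusted p = 0.0452), the fit without control 2 (0.89, 0.0179) and that without controls 2 and 6 (1.02, 0.00439). Over all genes, the block and these omissions called 187, 322 and 648, where the main fit called 128. Among Schwann cell markers, Drp2 had a log2 fold change of -0.72 (edgeR adjusted p = 0.128), whereas Cdh19 and Sox10 had 0.44 and 0.51 (edgeR adjusted p = 0.196 and 0.204). The Schwann gene called by DESeq2 was Drp2, and with sample weights it was Cdh19. Of markers of spinal cord glia, skeletal muscle and red blood cells, 9, 9 and 5 were tested, and 0 passed with edgeR, DESeq2 or limma-voom or had an unadjusted p under 0.05. Spinal cord glia markers varied widely between libraries. They had a median of -0.18 and summed to between 44.3 and 3600 CPM in controls and between 195 and 1490 in DAAO. Muscle markers, such as Actn3, had a median of -2.47 and summed to between 14 and 2820 CPM in controls and between 6.15 and 470 in DAAO. The part of these cells in the levels of the VEGF and angiopoietin genes was not tested.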

How the data were processed

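Total RNA of 12 samples of dorsal root ganglia was sequenced as paired reads, per the labels' protocols. The authors deposited whole-number read counts per gene, not normalised, with gene names, positions and lengths. Per the submitters' processing notes, tools included HISAT2 2.0.5, FastQC and DESeq2 1.20.0, with GRCm38 and mm10 listed as builds. For the counter, its strand setting and annotation release, details were not given in the sources used here. Positions and lengths of all 10 members equal those of GENCODE M21.

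Groups came from the sample titles. The members and gene lists were chosen with earlier results of these data known. Genes were kept with edgeR's filterByExpr (minimum count 10, minimum total 15), scaled by TMM, and tested two-sided by the quasi-likelihood method of edgeR 4.0.16 with robust dispersions (R 4.3.3). Benjamini-Hochberg adjustment ran over 17002 genes, with a threshold of 0.05. SE was taken as the size of the log2 fold change over the root of its F statistic, and intervals are 95%. List levels are means of centred log2 CPM (prior count 2). Correlations used 100000 permutations. All members were named, with every passing gene of a list or otherwise up to 3 of smallest p (fewer are printed for cell markers), genes that overlap a member, and the 3 nearest profiles of Vegfa, Kdr and Tek. Pik3ca and genes given as examples of a list fall outside this rule and were chosen after their values were seen. Alternatives used DESeq2 1.42.0, limma 3.58.1, other scaling and filters, a replicate block, marker levels as terms and omitted libraries. The smallest chi-square per degree of freedom between 2 libraries was 19.1 over 66 pairs, so none was a duplicate.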

Additional observations from a re-analysis of the deposited data

Results flagged for a closer look

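The Angpt1 level of DAAO 3 lay far from the rest of its group, at 16.7 CPM with the next DAAO library at 6.98, a gap of 0.831 of the group's range. The ratio of Flt1 to Kdr per kilobase in control 2 lay below the rest of the controls, at 1.01 with the next at 1.72, a gap of 0.634 of the range. These were 2 flags in 38 groups of 6 libraries, where chance flags about 1 in 20. DAAO 3 also had the lowest endothelial level (-0.31) and the second lowest neuronal level (-0.39) of the libraries, and control 2 had a mitochondrial share of 7.44%; their part in these values was not tested.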

How the results depend on the processing

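Over 25 alternatives for each member, 250 in all, 0 were called. The sign turned in 10 of them, in 4 members: Vegfb (from -0.19 to 0.01 without 1 library; 0.05 with limma-voom and sample weights, 0.01 without control 2, 0.16 without controls 2 and 6), Flt4 (from -0.17 to 0.25 without 1 library; -0.17 without control 5 and -0.17 without DAAO 1), Tie1 (from -0.09 to 0.14 without 1 library; -0.01 without control 2, -0.09 without DAAO 1, -0.01 without controls 2 and 6) and Angpt1 (from -0.05 to 0.51 without 1 library; -0.05 with the neuronal marker level as a term). Without 1 library, Vegfa ranged from 0.01 to 0.28 and Vegfc from -0.68 to -0.25. Flt1 had an unadjusted p under 0.05 in 8 alternatives, Angpt2 in 4, Kdr in 3 and Tek in 1. With the endothelial term, 1 member (Flt1) passed without controls 2 and 6, the controls with the lowest Flt1. The count of genes changed was 128; it was 362 with DESeq2, 295 with limma-voom and sample weights, 648 without controls 2 and 6, and between 61 and 322 when 1 library was left out (80, 322 and 77 without controls 1, 2 and 5; 78, 65, 73 and 61 without DAAO 1, 2, 3 and 6). The causes were not tested. The replicate number as a block gave 187 genes (144 higher, where 86 of the 128 were) and 0 members (smallest adjusted p 0.569). Same-numbered libraries had correlations of their deviations from -0.08 to 0.21, and for 3 of 6 numbers the best match was the same number. These values do not settle whether the numbers pair the libraries. The labels do not state a pairing, and the main fit left the numbers out. Vegfc and Flt4 had the fewest counts, with 3 to 47 and 8 to 51 per library; how much of their error comes from depth was not tested.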
